A study of Mus musculus with 11 samples.

Results

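The 34 type I interferon response genes described here were chosen by symbol, as genes induced by type I interferon, with no threshold on measured values. Earlier results of these data were known when they were chosen. All 34 were present in the bulk RNA-seq table of follicular regulatory T (Tfr) cells, among 29224 genes, and all 34 in the single-cell matrix, among 31053 features. The series holds 11 samples of C57BL/6 mouse T cells from draining lymph nodes and asks what Sostdc1, a secreted inhibitor of the BMP and Wnt pathways, does in follicular T cells. Values of 3 samples were used: 1 Tfr library labelled knockout (KO), with the genotype label Sostdc1 homo, 1 Tfr library labelled wild type (WT), and 1 droplet single-cell library of CD44+ CD4+ T cells from mice heterozygous for a Sostdc1-EGFP reporter. Tfr cells were sorted as CXCR5+ PD1+ GITRhi cells. The labels used here give neither the deleted part of Sostdc1, nor the age and number of the mice, nor whether animals were pooled. The 6 RNA libraries of Tfh and non-Tfh cells and the 2 ATAC libraries were not analysed here.

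Type I interferons bind a receptor made of IFNAR1 and IFNAR2 and activate the kinases TYK2 and JAK1. These phosphorylate STAT proteins, STAT2 among them, which join IRF9 and bind interferon-stimulated response elements (ISRE) in the promoters of antiviral genes. In T cells the same genes mark exposure to interferon, and many of them can also be raised by interferon gamma, through STAT pairs that bind gamma-activated sites (GAS), or by IRF factors acting directly.

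The promoters of 5 of the genes are shown because the results turn on them: Ifit1, Ifit3 and Ifit3b were lower in the KO-labelled library, and Ifit1 and Ifit3 also defined a group of single cells compared below, while Bst2 had the lowest and Isg15 one of the few positive bulk log2 ratios. Each is the 200 bases before the start of the gene in RefSeq (GRCm38.p6), read 5′ to 3′ on the strand of the gene, at chr19:34640689-34640888 (+), chr19:34583329-34583528 (+), chr19:34607757-34607956 (+), chr4:156200819-156201018 (-) and chr8:71537473-71537672 (-), in that order. Capitals mark matches to the ISRE letters GAAANNGAAA on either strand.
Ifit1: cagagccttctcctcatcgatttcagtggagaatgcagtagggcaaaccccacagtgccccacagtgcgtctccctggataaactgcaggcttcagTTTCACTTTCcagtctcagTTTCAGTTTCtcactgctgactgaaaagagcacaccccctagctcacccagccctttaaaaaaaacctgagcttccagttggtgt
Ifit3: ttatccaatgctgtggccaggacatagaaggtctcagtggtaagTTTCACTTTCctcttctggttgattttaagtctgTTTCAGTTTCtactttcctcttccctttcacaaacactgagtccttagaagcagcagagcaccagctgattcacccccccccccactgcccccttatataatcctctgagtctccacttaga
Ifit3b: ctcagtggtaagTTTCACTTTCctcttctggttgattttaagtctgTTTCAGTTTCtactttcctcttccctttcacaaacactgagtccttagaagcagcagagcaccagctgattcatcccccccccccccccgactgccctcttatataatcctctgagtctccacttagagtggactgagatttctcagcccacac
Isg15: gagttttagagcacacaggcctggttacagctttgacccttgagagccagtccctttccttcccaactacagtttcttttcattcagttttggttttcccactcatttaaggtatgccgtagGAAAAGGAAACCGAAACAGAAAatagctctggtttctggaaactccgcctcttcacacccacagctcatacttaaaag
Bst2: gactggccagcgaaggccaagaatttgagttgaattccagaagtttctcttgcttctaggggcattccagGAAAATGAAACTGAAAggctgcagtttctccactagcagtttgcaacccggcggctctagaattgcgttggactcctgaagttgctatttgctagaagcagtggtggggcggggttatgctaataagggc
In Ifit1 the matches began 104 and 85 bases before the start, in Ifit3 156 and 122, and in Ifit3b 188 and 154. Isg15 held 3 overlapping matches, which began 78, 72 and 66 bases before the start, and Bst2 held 2 overlapping matches at 130 and 124. Over the whole 300-base RefSeq windows, 76.2% of the aligned columns of Ifit3 and Ifit3b were identical, against 52.5% for Ifit1 and Ifit3 and 50% for Ifit1 and Ifit3b. RefSeq promoter windows were matched for 26 of the 34 genes, and 14 of these 26 held the ISRE letters, against 3.99% of the 27025 genes with a window. The GAS letters TTCNNNGAA were found in 6 of the 26, against 9.55% of all genes. The entries not matched were Mx1, Ifi204, Oas2, Parp14, Usp18, Zbp1, Rtp4 and Dhx58.

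Sostdc1 itself went against the labels. The gene had 458 counts (16.5 CPM, counts scaled to a library total of 1000000) in the KO-labelled library against 4 counts (0.221 CPM) in the WT-labelled library. Xist, an RNA of female cells, had 34234 counts in the KO-labelled library and 39 in the WT-labelled library, and the Y-linked Ddx3y had 6 and 3557. Genotype, sex of the animal and library therefore cannot be told apart, and every bulk difference below compares the KO-labelled library with the WT-labelled library. Whether the columns of these libraries were exchanged was not tested; if they were, every bulk direction below would turn. The genes of the sort were present in both. Cxcr5 stood at 62.8 CPM in the KO-labelled library and 55.7 CPM in the WT-labelled library, and Pdcd1 at 229 and 164 CPM. Tnfrsf18, which encodes GITR, stood at 276 and 165 CPM, a ratio of 1.67 (1.60 to 1.74). Foxp3, not named in the sort, stood at 1164 CPM in the KO-labelled library and 1471 CPM in the WT-labelled library. The libraries held 27777625 counts in the one labelled KO and 18076300 in the one labelled WT. With 1 library per group there is no test; a gene is called higher or lower when its log2 ratio of CPM + 1 passed 2-fold and it had at least 5 CPM in at least 1 library. Intervals are exact 95% intervals and cover counting error only. In bulk RNA, fewer cells of a type and less RNA per cell cannot be told apart.

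Most of the interferon response genes stood lower in the Tfr KO-labelled library. Of the 34, 33 had at least 5 CPM in 1 library or more, and Ifi44 did not. Their median log2 ratio was −0.61, against −0.04 over all 10191 genes measured at that level, whose quartiles were −0.45 and 0.28. The log2 ratio was below 0 for 28 of the 33 genes, as it was for 53.4% of all genes, and above 0 for Ifi204, Usp18, Ifih1, Isg15 and Ifi35. By the 2-fold rule, 7 were lower (Bst2, Cmpk2, Ifit1, Ifit3, Ifit3b, Irf7 and Oasl1), where 9.12% of all genes were lower, and 2 were higher (Usp18 and Ifi204), where 2.6% of all genes were higher. Of these 9, Cmpk2, Ifit3b and Oasl1 reached 5 CPM in the WT-labelled library alone and Ifi204 in the KO-labelled library alone. The authors' deposited table marks the same 9 genes, but its ratios come from the same counts, so the match adds no support. Summed over the 34 genes, the KO-labelled library held 71408 counts, or 2571 CPM, and the WT-labelled library 67990 counts, or 3761 CPM.

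The scaling of the libraries moves all of these ratios together. Scaling by the trimmed mean of log ratios (TMM) raised the median of all genes to 0.11 and left 2 of the 32 genes that then had 5 CPM lower (Bst2 and Cmpk2) and 3 higher (with Ifih1), at a member median of −0.45. Ifit3b lost its call through that level, with its log2 ratio at −1.40. With TMM scaling 6.75% of all genes were lower and 4.07% higher, so the count of lower members lay near the share of all genes. DESeq2 size factors raised the median of all genes to 0.18 and gave the same 2 lower and 3 higher among 32, at a member median of −0.38, again with Ifit3b under the level and its log2 ratio at −1.35. With DESeq2 scaling 5.92% of all genes were lower and 5.02% higher, so the lower count again lay near the share of all genes. Relative to the median of all genes, 5 members lay above it under each of the 3 scalings, and 28 below it with CPM and 27 below it with TMM or DESeq2 scaling.

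**Figure D1:**
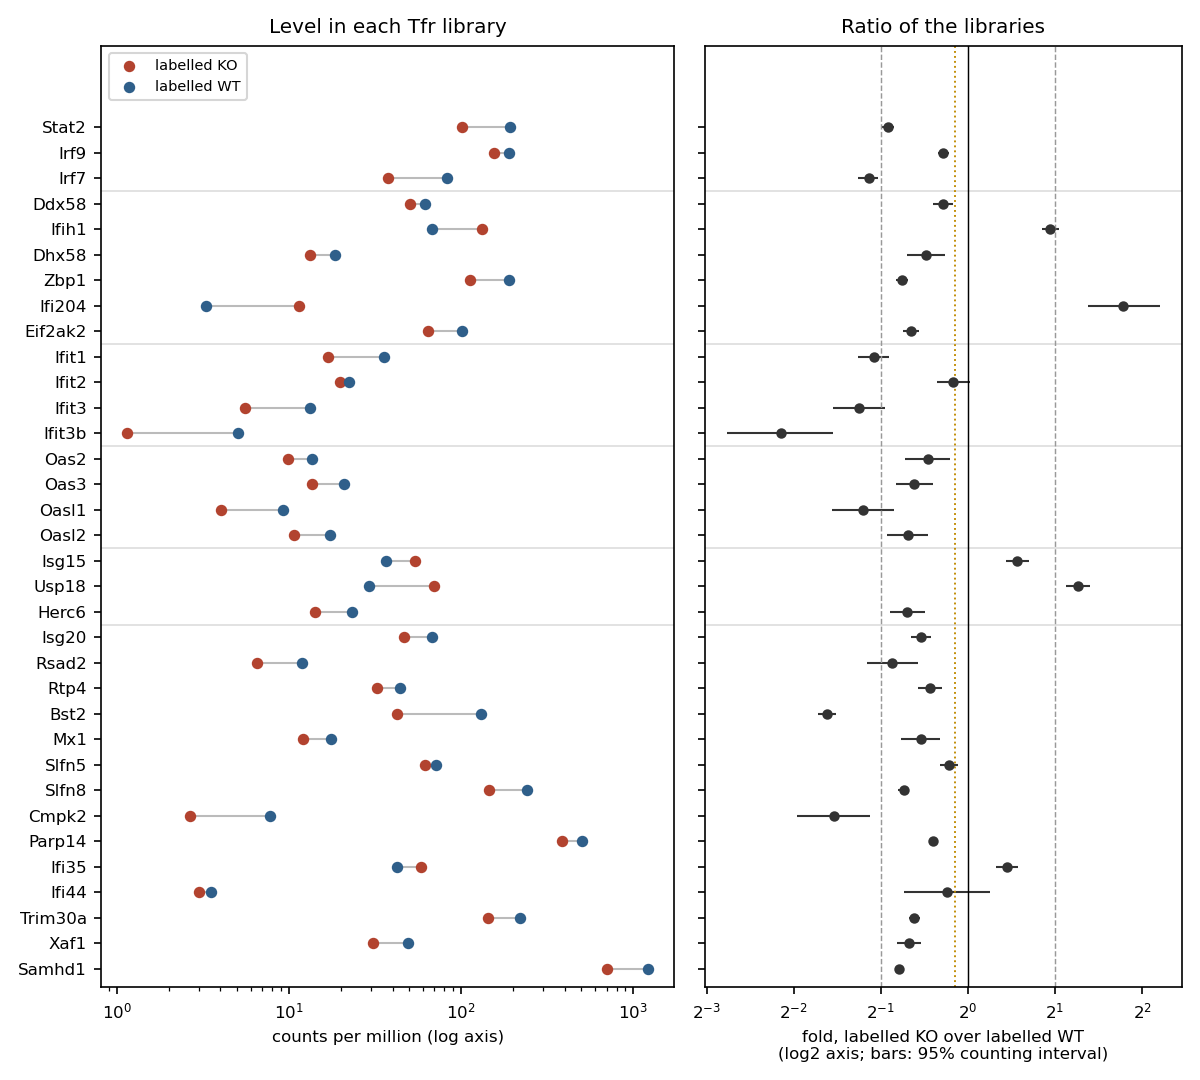
Level of each of the 34 interferon response genes in the Tfr KO-labelled library (red) and the WT-labelled library (blue) in CPM on a log axis, and the ratio of the libraries with its 95% counting interval on a log2 axis. Grey rules part the roles, dashed lines mark 2-fold, and the dotted line marks a ratio of 0.90, which TMM scaling would place at 1; red lies left of blue for all but Ifih1, Ifi204, Isg15, Usp18 and Ifi35.

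**Figure D2:**
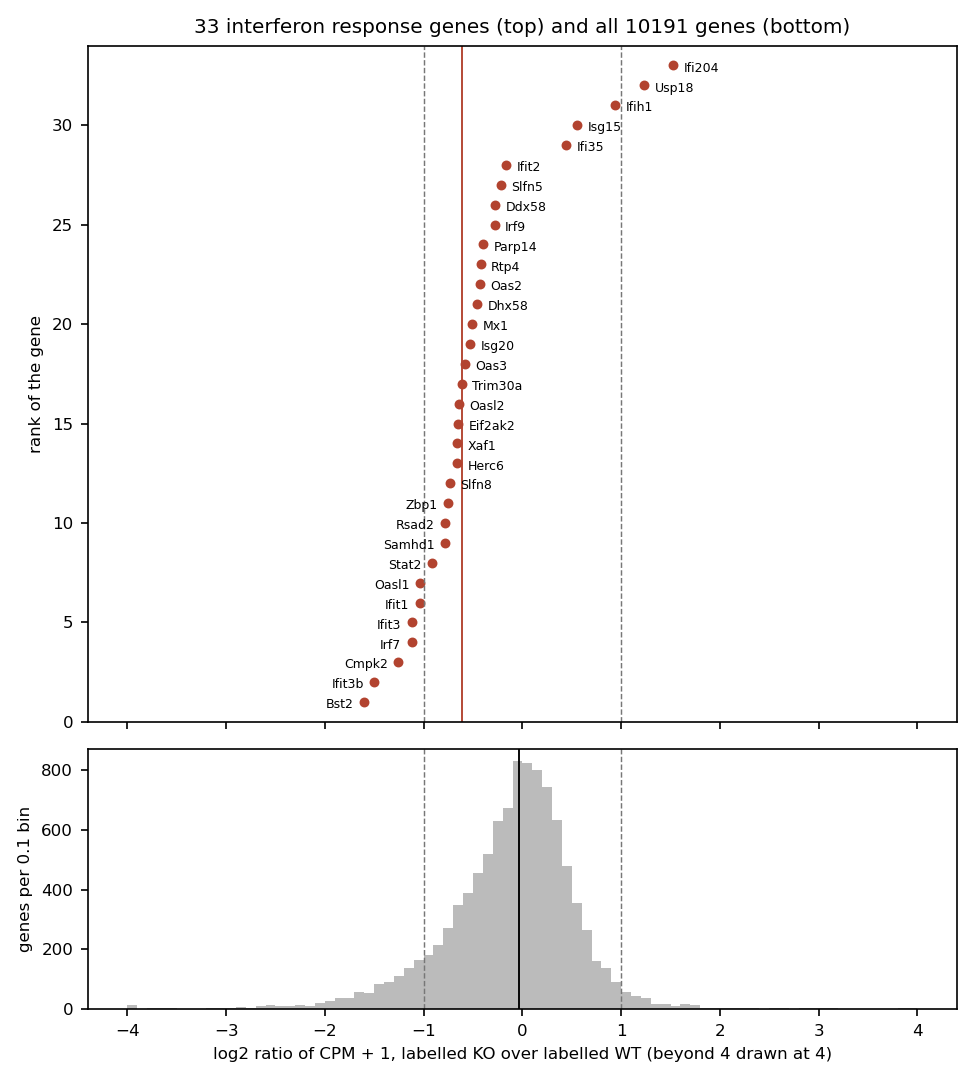
Log2 ratios of CPM + 1 (labelled KO over labelled WT) of the 33 interferon response genes with at least 5 CPM, in rank order, above a histogram of all 10191 such genes. Solid lines mark the medians, −0.61 for the 33 genes and −0.04 for all genes, and dashed lines 2-fold.

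Among the signal transducers, Stat2, the STAT that is specific to the type I and type III interferon pathways, had 2822 counts (102 CPM) in the KO-labelled library and 3474 counts (192 CPM) in the WT-labelled library, a ratio of 0.529 (0.503 to 0.556). Irf7, the factor that amplifies type I interferon production, had 1048 counts (37.7 CPM) in the KO-labelled library and 1505 counts (83.3 CPM) in the WT-labelled library, 2.21-fold lower (2.04 to 2.39). Irf9, the DNA-binding partner of STAT2, had 156 CPM in the KO-labelled library and 190.0 CPM in the WT-labelled library. So all 3 transducers stood lower, and only Irf7 passed 2-fold; with TMM scaling its log2 ratio was −0.97 and no longer passed.

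The sensors were split. Ifi204, a cytosolic and nuclear DNA sensor of the PYHIN family, had 318 counts (11.4 CPM) in the KO-labelled library and 60 counts (3.32 CPM) in the WT-labelled library, 3.45-fold higher (2.61 to 4.62). Ifih1, which encodes the long double-stranded RNA sensor MDA5, had 3649 counts (131 CPM) in the KO-labelled library and 1231 counts (68.1 CPM) in the WT-labelled library, a ratio of 1.93 (1.81 to 2.06). The other 4 sensors went the other way. Ddx58, which encodes the RNA sensor RIG-I, stood at 50.5 CPM in the KO-labelled library and 61.5 CPM in the WT-labelled library, and Dhx58, which encodes their relative LGP2, at 13.2 and 18.5 CPM. Zbp1, a sensor of Z-form nucleic acid, had a ratio of 0.593 (0.565 to 0.623), with 112 CPM in the KO-labelled library and 189 CPM in the WT-labelled library. Eif2ak2, which encodes the kinase PKR that stops translation on viral RNA, had a ratio of 0.635 (0.594 to 0.678), with 64.2 and 101 CPM. Eif2ak2 overlaps the gene models Gm6548 and Gm26637, and how the authors' counting divided reads between them is not stated.

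The Ifit genes, a cluster on chromosome 19 whose products bind foreign RNA and block its translation, had the lowest median log2 ratio of the 6 roles, −1.08. Ifit1 had 470 counts (16.9 CPM) in the KO-labelled library and 648 counts (35.8 CPM) in the WT-labelled library, 2.12-fold lower (1.88 to 2.39). Ifit3 had 155 counts (5.58 CPM) and 240 counts (13.3 CPM) in the KO- and WT-labelled libraries, 2.38-fold lower (1.94 to 2.93). Ifit3b had 32 counts (1.15 CPM) and 92 counts (5.09 CPM) in the KO- and WT-labelled libraries, 4.42-fold lower (2.93 to 6.83). Ifit3 and Ifit3b are near-identical copies and Ifit1 and Ifit3b overlap Ifit1bl1, itself at 166 counts in the KO-labelled library and 308 in the WT-labelled library, so their split of reads is uncertain. Ifit2, the neighbour that stood apart, had 553 counts (19.9 CPM) in the KO-labelled library and 405 counts (22.4 CPM) in the WT-labelled library, and its interval of 0.780 to 1.01 holds 1.

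In the oligoadenylate synthetase family, whose active members make the second messenger that switches on RNase L, all 4 genes stood lower and 1 passed 2-fold. Oasl1, known in mice to restrain translation of Irf7, had 112 counts (4.03 CPM) in the KO-labelled library and 168 counts (9.29 CPM) in the WT-labelled library, 2.31-fold lower (1.80 to 2.95). Oas2, Oas3 and Oasl2 had ratios of 0.620 to 0.725.

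In the ISG15 system 2 of 3 genes stood higher in the KO-labelled library. Isg15, a ubiquitin-like modifier, had 1507 counts (54.3 CPM) in the KO-labelled library and 662 counts (36.6 CPM) in the WT-labelled library, a ratio of 1.48 (1.35 to 1.63). Usp18, which removes ISG15 and also blocks IFNAR signalling, had 1944 counts (70.0 CPM) in the KO-labelled library and 528 counts (29.2 CPM) in the WT-labelled library, 2.40-fold higher (2.18 to 2.64). Herc6, the main ISG15 ligase in mice, had 14.3 CPM in the KO-labelled library and 23.1 CPM in the WT-labelled library, a ratio of 0.617 (0.536 to 0.709).

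Among the 14 other effectors, Bst2, which tethers budding virus to the cell surface, had 1180 counts (42.5 CPM) in the KO-labelled library and 2363 counts (131 CPM) in the WT-labelled library, 3.08-fold lower (2.87 to 3.30). Cmpk2, a mitochondrial nucleotide kinase next to Rsad2 in the genome, had 74 counts (2.66 CPM) in the KO-labelled library and 140 counts (7.74 CPM) in the WT-labelled library, 2.91-fold lower (2.18 to 3.91). Rsad2 itself, which encodes viperin, had a ratio of 0.547 (0.446 to 0.671). The most counted gene, Samhd1, a dNTP hydrolase that limits reverse transcription, had 19553 counts (704 CPM) in the KO-labelled library and 21943 counts (1214 CPM) in the WT-labelled library, a ratio of 0.580 (0.569 to 0.591). Ifi35 was the only effector with an interval above 1, at 58.1 CPM in the KO-labelled library and 42.5 CPM in the WT-labelled library, and Ifi44, with 83 and 64 counts, had an interval that holds 1. The other 8 effectors, Isg20, Mx1, Rtp4, Slfn5, Slfn8, Parp14, Trim30a and Xaf1, had ratios below 1 with intervals below 1, though Slfn5, like Ifit2, had a log2 ratio just above 0 with DESeq2 scaling.

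Members with and without ISRE letters in the promoter covered overlapping ranges of the bulk ratio. The 14 members with the letters had a median log2 ratio of −0.69 and ranged from −1.60 to 0.94, and the 12 matched members without them had a median of −0.65 and ranged from −1.26 to 0.44.

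Genes upstream of the response were looked at as lists, whose counts stand beside 9.12% of all genes lower and 2.6% higher. Of the interferon ligand genes in the bulk table, only Ifng reached 5 CPM, at 13489 counts (486 CPM) in the KO-labelled library and 1266 counts (70.0 CPM) in the WT-labelled library, 6.93-fold higher (6.54 to 7.35). The 7 other ligand genes in the table had 7 counts in all in the KO-labelled library and 34 in the WT-labelled library. Of 8 receptor and kinase genes, 1 was lower, the kinase gene Tyk2, at 134 CPM in the KO-labelled library and 330.4 CPM in the WT-labelled library, 2.46-fold lower (2.36 to 2.57). Ifnar1 had a ratio of 0.636 (0.608 to 0.665) and Ifngr1 one of 0.666 (0.643 to 0.691). None of the 7 other STAT and IRF genes passed 2-fold; the largest differences were in Irf8 (0.565), Irf5 (0.566) and Irf3 (0.600). Among 9 negative regulators, 2 were lower and Usp18 was higher. Socs1, the feedback inhibitor of JAK kinases, had 34.3 CPM in the KO-labelled library and 163 CPM in the WT-labelled library, 4.74-fold lower (4.40 to 5.10), and Foxo3 was 2.1-fold lower (1.95 to 2.26). With TMM or DESeq2 scaling 1 of the 9 was lower.

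Of 11 genes of nucleic acid sensing, 1 was lower: Ikbke, a kinase of IRF3 and IRF7, at 161 CPM in the KO-labelled library and 332 CPM in the WT-labelled library, 2.06-fold lower (1.98 to 2.15), a call that TMM and DESeq2 scaling both ended. The DNA sensor Aim2 and the adaptor Myd88 had ratios of 1.5 and 1.46. Each of these counts of 1 lower gene lies near the share of all genes. Of 54 other interferon-induced genes, 4 were lower and 2 higher in CPM, with a median log2 ratio of −0.28, and 2 were lower and 3 higher with DESeq2 scaling, again near the shares of all genes. By size, these were led by the gene model Gm4951, 4.97-fold lower (4.26 to 5.82), Ly6c2, a surface protein of memory and effector cells, 4.58-fold higher (3.70 to 5.74), and Ifit1bl1, 2.85-fold lower (2.35 to 3.47). Of 17 genes induced mainly by interferon gamma, mostly GTPases, 4 were lower and none higher, and all 17 had a log2 ratio below 0 with CPM and TMM scaling and 16 with DESeq2 scaling, with a median of −0.54 in CPM. The chemokine gene Cxcl10 had 36.6 CPM in the KO-labelled library and 119.8 CPM in the WT-labelled library, 3.27-fold lower (3.03 to 3.52), Gbp10 was 3.15-fold lower (2.81 to 3.54) and Iigp1 2.37-fold lower (2.30 to 2.44). These lower values stood beside the higher Ifng of the same library.

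Summed markers of some other cells differed between the bulk libraries. The 10 B cell markers summed to 519 CPM in the KO-labelled library and 1117 CPM in the WT-labelled library, and the 6 plasma cell markers to 1499 and 759 CPM. By the 2-fold rule, 1 B cell marker was lower and 1 higher, and 1 plasma cell marker was higher and none lower. Over all genes 9.12% were lower and 2.6% higher. The 6 NK and CD8 T cell markers summed to 24.9 and 13.1 CPM. The 11 myeloid markers summed to 104 and 81.4 CPM, and the 9 markers of plasmacytoid dendritic cells, the main source of type I interferon, to 238 and 249 CPM. Of these 9, Siglech had only 16 counts in the KO-labelled library and 17 in the WT-labelled library. Cox6a2 and Klk1 were at 0 in the KO-labelled library. The part of such other cells in the difference of the interferon response genes was not tested.

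The single-cell library showed how the same genes are spread over cell types. It held 15002 barcodes and 106127466 unique molecular identifiers (UMIs), and 13190 barcodes with at least 500 genes and under 10% mitochondrial UMIs were kept. Cells were gated by detected transcripts: T cells by Cd3 genes without B cell genes, Tfr by Foxp3, Cxcr5 and Pdcd1, regulatory T (Treg) by Foxp3 without the other 2, follicular helper T (Tfh) by Cxcr5 and Pdcd1 without Foxp3, and resting T by markers of resting cells, Ccr7 among them, without those genes or Mki67. B cells, which a CD4 sort should not hold, were gated by B cell genes without Cd3. Some marker genes outside the gates went with the names. Ikzf2 stood at 663 CPM in Tfr and 767 in Treg cells, against 226 in Tfh and 71.6 in resting T cells. Tox2 stood at 57.5 in Tfr and 155 in Tfh cells, against 6.63 in resting T cells, and Klf2 at 148 CPM in Tfh cells and 629.8 in resting T cells. Others did not. Tcf7, listed as a resting marker, stood at 458 CPM in Tfh and 364 in resting T cells. Gpr83, listed as a Treg marker, stood at 24.0 CPM in Treg cells but at 9.03 in Tfr and 8.23 in resting T cells. A CD44+ sort is made to remove naive cells, so the high Ccr7 of the resting gate only describes its choice. Transcripts of other cells were found in the gates: the B cell transcript Igkc had 180 to 237 CPM in the T cell gates, against 36162 CPM in B cells, and Trac had 31.2 CPM in B cells. Whether free RNA or doublets brought them was not tested.

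Summed over the 34 genes, Treg cells held the most interferon response RNA. The level was 2009 CPM (1930 to 2091) in 94 Tfr cells, 2775 CPM (2745 to 2806) in 1510 Treg cells, 2187 CPM (2153 to 2221) in 766 Tfh cells, 2131 CPM (2106 to 2156) in 1950 resting T cells and 1800 CPM (1752 to 1848) in 487 B cells. Median UMIs per cell were 10450.5 in Tfr, 5851.5 in Treg, 7639.5 in Tfh, 6181.5 in resting T and 4743 in B cells. In order of level, from Treg to Tfh, resting T, Tfr and B cells, only the intervals of Tfh and resting T cells overlap. These intervals cover the counting of UMIs in 1 library and not the spread between cells, so they do not settle the order. In the Tfr gate, the 11 of 94 cells with a UMI of both Ifit1 and Ifit3 held 28.9% of the UMIs of the 34 genes. Leaving out Ifit1 and Ifit3, which chose these cells, the part was 26.2%. Treg cells also led with each cell thinned to 3000 UMIs, at 3089 CPM, against 2484 in Tfr, 2355 in Tfh, 2148 in resting T and 1909 in B cells. Tfr cells then stood above Tfh and resting T cells, so their place in the order depends on the setting. Samhd1 made up 30.7% of the summed difference between Tfr and Treg cells, at 342 CPM in Tfr cells and 577 CPM in Treg cells.

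**Figure D3:**
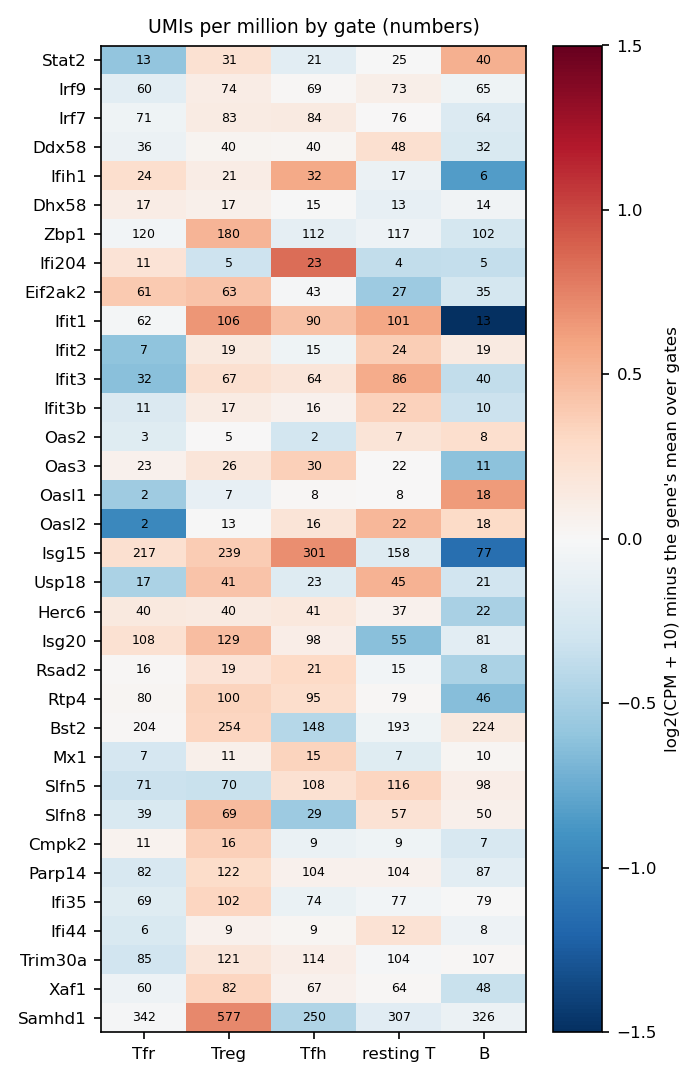
Level, as CPM of UMIs, of each of the 34 interferon response genes in the 5 gates of the single-cell library (printed numbers), coloured by log2(CPM + 10) minus the mean of the gene over the gates. Ifit1 is lowest in B cells at 13.5 CPM, and Samhd1 highest in Treg cells at 577 CPM.

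Between Tfr and Treg cells no interferon response gene passed 2-fold. Genes that reached 20 CPM in either gate were compared on the log2(CPM + 10) scale, and 23 of the 34 reached that level. Over all 5670 genes, 1.01% were higher and 0.741% lower in Tfr cells. The 23 had a median log2 ratio of −0.30, against 0.07 for all genes, with 20 below 0. Usp18 stood at 17.2 CPM in Tfr and 40.9 CPM in Treg cells, a ratio of 0.421 (0.258 to 0.651), Ifit3 at 32 and 66.7 CPM, a ratio of 0.480 (0.339 to 0.662), and Stat2 at 13.1 and 31.1 CPM, a ratio of 0.422 (0.239 to 0.696). On the other side lay Ifih1 at 1.15 (0.753 to 1.69), Herc6 at 1.01 and Slfn5 at 1.01, each with an interval that holds 1. The Tfr values rest on few UMIs, 16 for Stat2 and 21 for Usp18. Usp18 and Ifit3 passed 2-fold lower in Tfr cells when the cells of highest doublet score were left out, and also when cells were thinned to 3000 UMIs.

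Tfh cells and resting T cells had nearly the same summed level, and single genes leaned in both directions. Of 28 genes that passed the level, 1 was at least 2-fold higher in Tfh cells, where 8.06% of all genes were, and none was lower, where 1.15% were. Neither count is more than the share of all genes. The gene higher in Tfh cells was Ifi204, at 23.4 CPM in Tfh cells and 4.50 CPM in resting T cells, 5.20-fold (3.84 to 7.11). Ifi204 reached 20 CPM in Tfh cells alone. Without the cells that held a UMI of both Ifit1 and Ifit3, Isg15 and not Ifi204 passed. Isg15 stood at 301 CPM in Tfh cells and 158 CPM in resting T cells, a ratio of 1.91 (1.79 to 2.02), Isg20, an RNA exonuclease, at 98 and 55.4 CPM, and Ifih1 at 32.1 and 16.8 CPM. Slfn8, a Schlafen family gene, stood at 29.3 CPM in Tfh cells and 56.6 CPM in resting T cells, a ratio of 0.517 (0.442 to 0.603), Usp18 at 23.1 and 44.5 CPM, Ifit2 at 15.3 and 24.2 CPM, and Ifit3 at 63.8 and 85.8 CPM. The median log2 ratio of the 28 was −0.06, against 0.31 for all genes.

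Tfr and Tfh cells share the follicular receptors, and none of 25 genes passed 2-fold between them, where 1.47% of all genes were higher and 0.472% lower in Tfr cells. Ifit3 had the lowest log2 ratio, at 32 CPM in Tfr and 63.8 CPM in Tfh cells, 0.502 (0.352 to 0.696), followed by Ifi204, at 11.5 and 23.4 CPM, Slfn5, at 70.6 and 108 CPM, and Ifit1, at 62.4 and 90.2 CPM. Bst2 stood at 204 CPM in Tfr and 148 CPM in Tfh cells, a ratio of 1.38 (1.2 to 1.59), Samhd1 at 342 and 250.1 CPM, Eif2ak2 at 60.8 and 43.5 CPM, and Slfn8 at 38.6 and 29.3 CPM. The median log2 ratio of the 25 was −0.22 with all UMIs and 0.02 with cells thinned to 3000 UMIs, which also weights cells equally and leaves out 1 Tfr and 19 Tfh cells, so its direction is not settled. This comparison shares its cells with those of Tfr and Treg cells and of Tfh and resting T cells.

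Between resting T cells and B cells, Ifit1 passed 2-fold. Of 25 genes that passed the level, Ifit1 was at least 2-fold higher in resting T cells, where 5.69% of all genes were, and none was lower, where 9.78% were, so the count is no more than the share of all genes. With under 5% mitochondrial UMIs, 6 were higher (Ifit1, Ifit3, Ifit3b, Isg15, Rtp4 and Slfn5) and Isg20 was lower. Ifit1 stood at 101 CPM in resting T cells and 13.5 CPM in B cells, 7.47-fold (5.48 to 10.5), and reached 20 CPM in resting T cells alone. Ifit3 stood at 85.8 CPM in resting T cells and 40.4 CPM in B cells, 2.12-fold (1.76 to 2.58), Isg15 at 158 and 77.3 CPM, and Usp18 at 44.5 and 21.0 CPM. These folds fall short of 2-fold on the scale with 10 CPM added. Stat2 stood at 24.7 CPM in resting T cells and 40.4 CPM in B cells, a ratio of 0.611 (0.495 to 0.758), Isg20 at 55.4 and 80.5 CPM, Eif2ak2 at 27.0 and 34.8 CPM, and Bst2 at 193 and 224 CPM.

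In each T cell gate some cells held transcripts of both Ifit1 and Ifit3. A UMI of both Ifit1 and Ifit3 was found in 11.7% of Tfr cells (5.99 to 20; 11 cells), 11.8% of Treg cells (10.2 to 13.5; 178 cells), 13.1% of Tfh cells (10.7 to 15.6; 100 cells), 11.3% of resting T cells (9.96 to 12.8; 221 cells) and 2.67% of B cells (1.43 to 4.52; 13 cells), with Clopper-Pearson intervals. The T cell gates overlap in their intervals and all lie above B cells. Without the cells of highest doublet score the share of Tfr cells was 7.14% (2.36 to 15.9), and its interval overlapped that of B cells. Thinned to 3000 UMIs the shares were 3.23% in Tfr (0.670 to 9.14), 7.07% in Treg, 6.43% in Tfh, 6.12% in resting T and 1.36% in B cells (0.50 to 2.93), so at equal depth the interval of Tfr cells overlaps that of B cells. Among all 10319 T cells, 1174 or 11.4% (10.8 to 12) held both transcripts, 221 of them with 1 UMI each. Ifit3 was detected in 43.1% of T cells with Ifit1 and in 11.5% of T cells without it. Leaving out Ifit1 and Ifit3, which chose them, the 1174 cells held 30.2% of the UMIs of the 32 other genes and 11.8% of all UMIs of the T cells. In Tfr cells those with both transcripts held 26.2% of the UMIs of the 32 genes, in Treg cells 27.0%, in Tfh cells 36.2% and in resting T cells 32.2%.

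**Figure D4:**
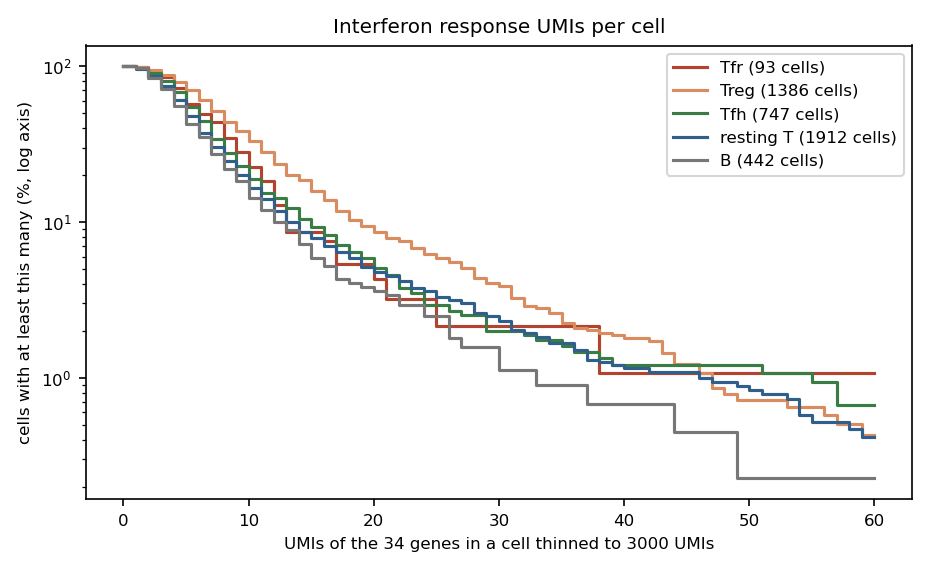
Share of cells (percent, log axis) with at least a given number of UMIs of the 34 interferon response genes, each cell thinned to 3000 UMIs, for the 5 gates of the single-cell library. Treg cells have the highest mean, 3089 CPM after thinning, and B cells the lowest, 1909.

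The other members followed Ifit1 and Ifit3. Of the 32 genes that the choice of cells did not use, 31 passed the level and Oas2 did not. Of the 31, 14 had under 20 CPM in cells with neither transcript and passed only through cells with both, so their call is largely set by the level. Of the 17 with at least 20 CPM in cells with neither, 16 were at least 2-fold higher in cells with both, where 1.09% of all genes with that level were, and none was lower, where 0.0779% were. With the level met in either group, in cells with both transcripts 30 of these were at least 2-fold higher than in T cells with neither, where 1.88% of all 5317 genes were higher, and none was lower, where 0.0752% were. Irf9 alone stayed within 2-fold, at 106 CPM in cells with both and 60.5 CPM in cells with neither, a ratio of 1.76 (1.63 to 1.89). The median log2 ratio of the 31 was 1.68, against −0.03 for all genes. Median UMIs were 6374.5 in the 1174 cells with both and 5806 in the 6727 cells with neither. Summed over the 32 genes, the level was 5508 CPM in cells with both, 2411 CPM in cells with Ifit1 only, 2133 CPM in cells with Ifit3 only and 1482 CPM in cells with neither. At 3000 UMIs per cell, the median number of the 32 genes detected was 9 in cells with both and 3 in cells with neither.

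Rsad2 had the highest fold of the genes that are no near copy of Ifit1 or Ifit3, at 104 CPM in cells with both and 4.26 CPM in cells with neither, 24.3-fold (20.9 to 28.4). Ifit3b stood at 117 CPM in cells with both and 4.36 CPM in cells with neither, but reads of Ifit3 and Ifit3b may be exchanged. Mx1, a gene of the dynamin-like GTPase family, was 12.4-fold higher (10.5 to 14.6), Oasl2 10.1-fold (8.91 to 11.5) and Isg15 7.53-fold (7.26 to 7.81). Isg15 stood at 773 CPM in cells with both and 103 CPM in cells with neither. Usp18 was 7.33-fold higher (6.71 to 8.02), Irf7 4.36-fold (4.12 to 4.62) and Stat2 3.52-fold (3.16 to 3.93). After Irf9 the lowest folds were those of Ifi35, 2.26-fold (2.12 to 2.40), Bst2, 2.22-fold (2.14 to 2.31) and Samhd1, 2.29-fold (2.22 to 2.36).

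**Figure D5:**
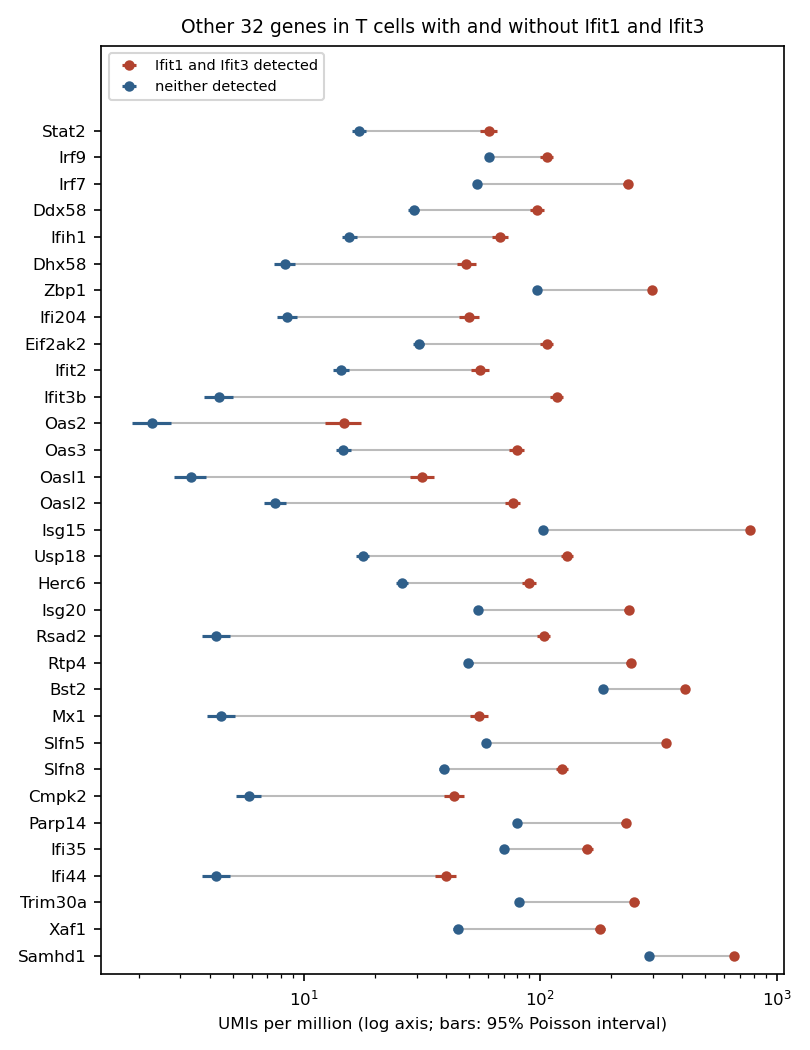
Level in CPM of UMIs (log axis, bars are 95% Poisson intervals) of the 32 interferon response genes not used to choose the cells, in T cells with a UMI of both Ifit1 and Ifit3 (red) and in T cells with neither (blue). Red lies right of blue for every gene, with the widest gaps in Rsad2 and Ifit3b and the narrowest in Irf9.

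The 6 sensors among the 34 genes were all higher in cells with both transcripts, by 3.06-fold in Zbp1 to 5.90-fold in Ifi204. Of these, Ifi204 (8.47 CPM), Dhx58 (8.29 CPM) and Ifih1 (15.6 CPM) had under 20 CPM in cells with neither. Those sensors passed the level only through cells with both. Of 7 receptor and kinase genes none passed 2-fold, with Ifnar1 at 55.4 CPM in cells with both and 44.8 CPM in cells with neither. Of 7 further genes of nucleic acid sensing 1 was higher, Trim25, a RIG-I cofactor, 2.53-fold (2.28 to 2.79). Of 50 other interferon-induced genes 32 were higher and 1 lower, and of 16 genes induced mainly by interferon gamma 12 were higher and none lower, among them Cxcl10 at 154 CPM in cells with both and 8.33 CPM in cells with neither, 18.5-fold (16.6 to 20.7). Of the members of these lists with at least 20 CPM in cells with neither, 20 of 36 other interferon-induced genes and 8 of 10 genes induced mainly by interferon gamma were higher. The lower gene was Ifitm1, at 30.4 CPM in cells with both and 71.2 CPM in cells with neither. The 12 myeloid markers summed to 1766 CPM in cells with both and 379 CPM in cells with neither. Without the barcodes that held at least 10 UMIs of myeloid or globin genes, 30 of 31 members were still at least 2-fold higher, at a median log2 ratio of 1.64. The 20 ligand genes other than Ifng had 9 UMIs in all cells kept, all of Ifnz, and none of Ifnb1 or of an Ifna gene.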

How the data were processed

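RNA was measured by bulk RNA-seq in 2 Tfr libraries and by droplet single-cell RNA-seq in 1 library. The deposited bulk table holds whole-number counts per gene. Its normalized values are CPM made by the authors from those counts, and its fold change and log2 fold change are the authors' ratios of them. The deposited p-values rest on single libraries and were not used. For the bulk counts, neither the counter nor the strand setting is stated in the sources used here. The column taken for the WT-labelled library bears a number absent from the sample title. The deposited matrix of single cells gives UMI counts. Per the file headers Cell Ranger 3.1.0 wrote it, whereas the submitters' processing notes name Cell Ranger 2.1.0.

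CPM were computed from the counts and the library totals, 27777625 (KO-labelled) and 18076300 (WT-labelled); 3 counts correspond to 0.108 and 0.166 CPM. Bulk log2 ratios used a pseudocount of 1 CPM and single-cell ratios one of 10 CPM. Fold intervals are exact conditional binomial, UMI sums exact Poisson and shares of cells Clopper-Pearson, all at 95%; bulk reads lack molecular identifiers, so they do not stand for independent molecules. Barcodes with under 500 genes (835) or at least 10% mitochondrial UMIs (977) were left out, and no barcode was repeated. The doublet caller marked 0 cells, so only the gates guard against doublets, and removing the 10% highest scores is an alternative. T cells needed 1 UMI of Cd3d, Cd3e or Cd3g and none of the B cell genes (Cd79a, Cd79b and Ms4a1 among them), and B cells 3 UMIs of these B cell genes and none of the Cd3 genes; 8383 kept cells fell in none of the 5 gates. Members of the roles and genes past 2-fold were named in bulk, up to 3 genes per list (gene models not named, except Gm4951, added after its value was seen), and up to 4 members per direction between gates. Some genes of the gates and lists are not reported here. The members and lists were chosen with earlier results of these data known. Motifs were searched on both strands of RefSeq promoter windows. Software was R 4.3.3 with edgeR 4.0.16 (TMM factors only) and DESeq2 1.42.0 (size factors only), and Python 3.11.15 with scanpy 1.11.5 and scipy 1.17.1.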

Additional observations from a re-analysis of the deposited data

How the results depend on the processing

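With 1 library per group no replicate could be left out, and no spread between animals was measured. No paired analysis was possible because each group compared held 1 library. The correction for promoter GC content was not run, since 75.8% of the 33 members tested had a promoter window. In bulk, 2 members were lower with TMM scaling (median log2 ratio −0.45), 2 with DESeq2 size factors (median −0.38), where Ifit3b failed the level alone at log2 ratios of −1.40 and −1.35, and 2 with a pseudocount of 5 CPM, where 1 was higher. Of all genes, 6.75%, 5.92% and 5.92% were lower in these settings, in that order. With the pseudocount of 5 CPM, 1.57% of all genes were higher. A pseudocount of 0.5 CPM, a total without mitochondrial, X and Y genes, and other filters on low values left the counts at 2 higher and 7 lower. Only Ifit2 and Slfn5 changed sign, both with DESeq2 size factors.

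Summed levels were 2837 CPM in Treg, 1973 in Tfh, 2229 in resting T and 1500.3 in B cells with under 5% mitochondrial UMIs, 1889 in Tfr and 1749 in B cells without high doublet scores, and 2163 in Tfr and 2834 in Treg cells with 2 UMIs of the gate genes. Thinned to 3000 UMIs they were 2484 in Tfr, 3089 in Treg, 2355 in Tfh and 1909 in B cells, and without cells holding both Ifit1 and Ifit3 1585 in Tfr, 2218 in Treg, 1549 in Tfh, 1567 in resting T and 1614 in B cells. Treg cells had the highest level in each of these settings. Without barcodes with 10 UMIs of myeloid or globin genes, an alternative chosen after seeing the data, levels were 2822 in Treg, 2100 in resting T and 1707 in B cells, and 2 members were higher in resting T than in B cells.

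With under 5% mitochondrial UMIs, 1 member was lower in Tfh than in resting T cells (Slfn8), 1 lower in Tfr than in Tfh cells (Ifi204), and 6 higher and 1 lower in resting T than in B cells. Without high doublet scores, 2 members were lower in Tfr than in Treg cells, 1 lower in Tfr than in Tfh cells and 2 higher in resting T than in B cells. With 2 UMIs of the gate genes, 1 was lower in Tfr than in Tfh cells; thinned, 2 were lower in Tfr than in Treg cells; and without cells holding both Ifit1 and Ifit3, 1 was lower in Tfr than in Treg cells (Ifit1) and 1 lower in resting T than in B cells (Isg20). The share of cells with both Ifit1 and Ifit3 was 20.8% of Tfr cells with 2 UMIs of the gate genes and 7.14% without high doublet scores. Thinned, it was 3.23% of Tfr, 7.07% of Treg, 6.43% of Tfh, 6.12% of resting T and 1.36% of B cells, where fewer UMIs per cell lower detection by construction. With at least 2 UMIs of Ifit1, Ifit3 and Ifit3b together, it was 16.0% of Tfr, 20.7% of Treg, 20.1% of Tfh, 19.0% of resting T and 6.57% of B cells. The cause of the other moves was not tested. The 30 members higher in cells with both Ifit1 and Ifit3 than in cells with neither were 30 by number in each planned setting and without barcodes of myeloid or globin genes. They were 31 with no filter on low values and 16 of 17 with at least 20 CPM in cells with neither, where fewer genes were counted; these 2 filters were chosen after seeing the data.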

Other observations

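The genes that accompany Ifit1 and Ifit3 in single T cells were looked at across the whole transcriptome. Over all 5317 genes, 100 were at least 2-fold higher in T cells with a UMI of both Ifit1 and Ifit3 than in T cells with neither; 30 of these were interferon response genes described above, 45 stood on the lists of other interferon-linked genes and 25 on neither. The 5317 genes needed 20 CPM in either group, so some passed only through cells with both. With at least 20 CPM in cells with neither, 56 of 5135 genes were higher, 16 of them interferon response genes. Among the 100 genes, those of highest fold included granulocyte and red cell transcripts such as S100a9 and Hbb-bs. Leaving out 25 of the cells with both and 141 of the cells with neither, those with at least 10 UMIs of myeloid or globin genes, removed 91.4% of the myeloid UMIs and 99.4% of the globin UMIs of the cells with both. In the remaining 1149 cells with both and 6586 cells with neither, 79 genes were higher, of which 30 were interferon response genes, 43 stood on the lists and 6 on neither. The 20 genes of highest log2 ratio then held 14 interferon response genes and 6 list genes, with the chemokine gene Cxcl10 at 112 CPM in cells with both and 7.43 CPM in cells with neither. Some of these 20, such as Cxcl10 and Rsad2 (3.82 CPM), had under 20 CPM in cells with neither. Such genes passed the level only through cells with both, so their place in the ranking is partly set by it.

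The 6 genes on neither list, named after their values were seen, were Ms4a4c, Trafd1, Samd9l, Jaml, BC147527 and Zufsp. Samd9l stood at 157 CPM in cells with both and 60.1 CPM in cells with neither, and Jaml, a junctional adhesion molecule, at 46.2 and 17.0 CPM. Over all cells 4 genes were at least 2-fold lower in cells with both on the log2(CPM + 10) scale, 1500009L16Rik, Ly6d, Rrm2 and Ifitm1. In the remaining cells 2 were lower, Ifitm1 and 1500009L16Rik. Ifitm1, a membrane protein that blocks viral entry, stood at 4.23 CPM in the remaining cells with both and 58.6 CPM in those with neither. Ifitm2, of the same family and on the same list, stood at 16.3 CPM in the remaining cells with both and 41.3 CPM in those with neither, without passing 2-fold on that scale. Rrm2, the small subunit of ribonucleotide reductase, stood at 43.3 CPM in cells with both and 100.1 CPM in cells with neither over all cells, and at 40.2 and 90.3 CPM in the remaining cells, where it no longer passed. Why these genes differ was not tested.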
